A study of Rattus norvegicus with 12 samples.

Results

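The genes described here are 8 common reference genes (Hprt, Gapdh, Pgk1, Actb, Ywhaz, Ppia, B2m and Tbp), followed in the dorsal striatum of rats with a unilateral dopamine lesion under different treatments. They were found by gene name among the non-control probes of the arrays, from a list of 9 names in which Hprt and its RefSeq symbol Hprt1 are the same gene. The name Hprt, which the scanner files use, is kept below. The members hold 16 probes printed in 79 spots, out of 41012 probes and 43379 non-control spots on each array. All 16 probes passed the filter on dim signals, and all 79 spots were well above background on all 12 arrays, so no member was lost.

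RNA came from 12 male rats, 3 per group, hybridised to 1 single-colour Agilent array each. Every rat had received 9 µg of 6-OHDA, a toxin of dopamine neurons, in the left substantia nigra pars compacta (SNc), and no unlesioned group was analysed here. The 6-OHDA group had no further treatment. In the HFS group an electrode stimulated the subthalamic nucleus of the lesioned side for 5 days at 130 Hz, with 80 µs pulses of 60 µA. The DOPA group was given 25 mg/kg of L-DOPA together with 12.5 mg/kg of benserazide, an inhibitor of its peripheral breakdown, in 2 injections per day over 19 days. The DOPA/HFS group had both treatments. The tissue was pooled punches of dorsal striatum, and all 10 marker genes of striatal projection neurons that passed the filter, among them Drd1, Drd2, Penk and Ppp1r1b, were well above background on all 12 arrays.

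A reference gene is one whose RNA is taken to vary little between samples, so that the amount of another RNA can be divided by it. Such genes serve tasks that most cells share. Hprt recycles hypoxanthine and guanine into purine nucleotides. Gapdh and Pgk1 are neighbouring enzymes of glycolysis. Actb is a cytoplasmic actin, Ywhaz a 14-3-3 adaptor that binds phosphorylated proteins, Ppia (cyclophilin A) a prolyl isomerase that aids protein folding, B2m the light chain of major histocompatibility complex (MHC) class I molecules, and Tbp the TATA-binding protein that starts the assembly of transcription complexes. The study divided its RT-qPCR values by Hprt, and also the array values that it showed beside them. Its RT-qPCR used other rats than the arrays, and it reported that Hprt on the arrays did not differ between samples. The behaviour of Hprt beside its usual alternatives is therefore described here for the arrays only.

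The primer pair of that RT-qPCR is shown because it defines which gene stood as the reference. The forward primer has 19 bases (57.9% GC) and the reverse primer 24 bases (41.7% GC), both against the RefSeq transcript of Hprt1.
Hprt1 forward primer: gaccggttctgtcatgtcg
Hprt1 reverse primer: acctggttcatcatcactaatcac

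Promoter windows from RefSeq (build GRCr8, 250 bases before to 50 after the gene start) were held for 5 of the 8 genes. Those of Gapdh, Hprt1 and Tbp are shown because these genes lay at opposite ends of the co-variation described below. Capitals mark the letters TATAAA, the core of the element that Tbp binds, and the letters GGGCGG, known as the GC box, each searched on both strands with no overlap between them in these windows. The window of Gapdh is chr4:159652418-159652717 on the minus strand, that of Hprt1 is chrX:137655494-137655793 on the plus strand, and that of Tbp is chr1:65136458-65136757 on the plus strand.
Gapdh: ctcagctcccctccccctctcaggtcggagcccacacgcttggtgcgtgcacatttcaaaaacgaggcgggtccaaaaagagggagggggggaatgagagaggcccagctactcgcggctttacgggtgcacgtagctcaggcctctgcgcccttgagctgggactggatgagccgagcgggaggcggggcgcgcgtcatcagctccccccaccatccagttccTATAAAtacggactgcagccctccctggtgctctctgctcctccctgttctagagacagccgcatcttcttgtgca
Hprt1: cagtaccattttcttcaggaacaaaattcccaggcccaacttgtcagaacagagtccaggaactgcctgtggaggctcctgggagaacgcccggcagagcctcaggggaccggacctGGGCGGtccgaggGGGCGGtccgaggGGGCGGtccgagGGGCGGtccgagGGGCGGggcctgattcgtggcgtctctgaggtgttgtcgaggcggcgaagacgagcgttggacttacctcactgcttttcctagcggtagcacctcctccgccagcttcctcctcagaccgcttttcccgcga
Tbp: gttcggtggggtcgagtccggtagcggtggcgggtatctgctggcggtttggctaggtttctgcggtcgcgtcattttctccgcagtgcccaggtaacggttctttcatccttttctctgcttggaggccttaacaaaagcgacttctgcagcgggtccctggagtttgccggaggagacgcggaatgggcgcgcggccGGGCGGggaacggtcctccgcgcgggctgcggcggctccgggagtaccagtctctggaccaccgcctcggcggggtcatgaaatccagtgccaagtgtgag

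The Gapdh window held 1 match to TATAAA and no GGGCGG. The Hprt1 window held no TATAAA and 5 GGGCGG, and the Tbp window no TATAAA and 1 GGGCGG. Of the other members with a window, Ppia held 1 TATAAA and 3 GGGCGG, and B2m 1 TATAAA and no GGGCGG. Among all 33469 windows of this length, 14.2% held TATAAA and 33.1% held GGGCGG, so both motifs are common. The GC content of the members' windows ran from 53% in B2m to 66% in Ppia, against a median of 51.7%. These letters are a description and say nothing about use of the sites.

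Before normalization the arrays differed in brightness. The median log2 signal over all non-control spots ran from 5.63 in 6-OHDA replicate 2, the dimmest array, to 6.89 in DOPA/HFS replicate 3, the brightest, and 50.5% to 63.2% of spots were well above background. DOPA/HFS replicate 3 stood apart in spot quality: the scanner software marked 4175 of its spots as outliers, against 2 to 25 on the other 11 arrays, and 238 spots as saturated, against 63 to 105. It also held all 8 outlier spots of the reference genes (5 of Gapdh and 3 of Ppia), which were left out, so its Gapdh value rests on 5 spots and its Ppia value on 7. Of 11 saturated reference spots 10 were on that array, namely 6 spots of Actb probe A_44_P423803, 1 spot of Actb probe A_44_P423810 and 3 spots of Gapdh probe A_44_P193181. The remaining one was the spot of Actb probe A_44_P423810 on 6-OHDA replicate 3. The other 6 genes had no saturated spot on any array. Each slide held 1 array of every group and each group sat at one position of the slide, so position and treatment cannot be told apart.

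Values below are log2 of the background-corrected intensity, quantile normalized between arrays, for the brightest probe of a gene, unless another probe is named. Brightness depends on the probe as well as on the RNA, so levels were compared between arrays and not between genes. In pieces of whole tissue, fewer cells of a type and less RNA per cell cannot be told apart.

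Hprt, the reference of the study, had normalized log2 signals of 14.28, 14.75 and 14.32 in the 6-OHDA rats, 14.43, 14.50 and 14.36 in the HFS rats, 14.36, 14.64 and 14.35 in the DOPA rats, and 14.28, 14.50 and 14.31 in the DOPA/HFS rats (probe A_43_P11257). The groups overlapped throughout, and in each of them replicate 2 was the highest. Group means ± SD were 14.45 ± 0.26, 14.43 ± 0.071, 14.45 ± 0.165 and 14.36 ± 0.12 (n = 3 each), in the same order. In the limma fit the difference from 6-OHDA was -0.02 (95% interval -0.37 to 0.33) under HFS, -0.00 (-0.35 to 0.35) under DOPA and -0.09 (-0.44 to 0.26) under DOPA/HFS, with a standard error (SE) of 0.16 each. As a fold, the HFS interval ran from 0.773 to 1.26 and, with the slide as a block, the log2 interval was -0.31 to 0.27. Within slides 1 to 3 its HFS difference was 0.15, -0.25 and 0.04. The values depended on the scaling: under DOPA/HFS it was -0.31 with 75th percentile scaling, and under DOPA -0.21 with no scaling between arrays.

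The remaining 3 Hprt probes target the same RefSeq transcript and had lower signals. Probe A_44_P1058445, averaged over 10 spots, gave 12.89, 12.93 and 12.56 in 6-OHDA, 12.78, 12.75 and 12.67 in HFS, 12.82, 12.77 and 12.86 in DOPA and 12.47, 12.85 and 12.60 in DOPA/HFS. Its differences from 6-OHDA were -0.06, 0.02 and -0.16 (SE 0.149), for HFS, DOPA and DOPA/HFS. Probes A_44_P365155 and A_44_P575340 lay above 6-OHDA by 0.02 to 0.12 in all comparisons (SE 0.187 to 0.21). The probes of this gene did not move as one over the arrays. The latter pair correlated with each other (r = 0.93 over 12 arrays, a description), whereas the brightest probe correlated with them at r = 0.25 and 0.07 and with the 10-spot probe at r = 0.52.

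Both glycolytic members gave their lowest value on the same array. Gapdh had signals of 15.94, 15.22 and 15.78 in 6-OHDA, 15.68, 15.57 and 15.91 in HFS, 15.84, 15.51 and 15.98 in DOPA, and 15.92, 15.75 and 15.51 in DOPA/HFS (probe A_44_P193181, 10 spots). Pgk1 had 13.69, 13.05 and 13.65 in 6-OHDA, 13.44, 13.70 and 13.79 in HFS, 13.81, 13.49 and 14.01 in DOPA, and 13.86, 13.71 and 13.28 in DOPA/HFS (probe A_44_P271625, 10 spots). For each gene 6-OHDA replicate 2 was the lowest of the 12 arrays and DOPA replicate 3 the highest, and every treated group overlapped with 6-OHDA. Pgk1 in the DOPA group showed the largest difference of any member, 0.31 (SE 0.22, interval -0.19 to 0.80, exact two-sided permutation p = 0.4). Gapdh differed by 0.07 under HFS, 0.13 under DOPA and 0.08 under DOPA/HFS (SE 0.21). Its second probe, A_44_P363377, differed by 0.03, 0.03 and 0.14 (SE 0.163) and correlated with the first at r = 0.71. The first probe lay above the second by up to 0.58 (DOPA replicate 3), but was level with it on DOPA/HFS replicate 3. On that array 3 spots of the first probe were saturated and 5 were left out as outliers.

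Actb, the cytoskeletal member, had signals of 16.34, 16.24 and 16.81 in 6-OHDA, 16.44, 16.53 and 16.58 in HFS, 16.63, 16.15 and 16.59 in DOPA, and 16.61, 16.34 and 16.62 in DOPA/HFS (probe A_44_P423810, 1 spot, saturated in the third rat of 6-OHDA and of DOPA/HFS). The saturated values are lower bounds, so the highest array cannot be named, and the groups overlapped. The differences were 0.05 for HFS, -0.01 for DOPA and 0.06 for DOPA/HFS (SE 0.19), the DOPA/HFS value being -0.16 with 75th percentile scaling, and those of the 10-spot probe A_44_P423803 were 0.15, 0.11 and -0.01 (SE 0.203). Its probes correlated at r = 0.83, and the gap between them was widest on DOPA/HFS replicate 3, where 6 spots of the 10-spot probe were saturated.

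Ywhaz, read by 1 spot of 1 probe, gave 15.24, 14.81 and 15.29 in 6-OHDA, 15.22, 14.79 and 15.32 in HFS, 15.39, 15.07 and 15.50 in DOPA, and 15.60, 15.34 and 14.81 in DOPA/HFS. It was the most variable member after normalization, and the DOPA/HFS group alone covered nearly the full range of the gene. Its differences were -0.00, 0.21 and 0.14 (SE 0.24). Ppia gave 12.63, 12.12 and 12.59 in 6-OHDA, 12.64, 12.88 and 12.40 in HFS, 12.70, 12.58 and 12.86 in DOPA, and 12.39, 12.61 and 12.94 in DOPA/HFS. Here too the lowest array was 6-OHDA replicate 2. The mean of Ppia lay above 6-OHDA in all treated groups, by 0.19, 0.27 and 0.20 (SE 0.20), and the DOPA value had an exact two-sided permutation p of 0.3, the lowest among the 24 gene differences.

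B2m, the MHC class I light chain, is read by 4 probes of which the brightest (A_44_P535612) and A_44_P122632 carry an expressed sequence tag as their identifier and the rest the RefSeq transcript. The brightest gave 14.49, 14.89 and 14.51 in 6-OHDA, 14.76, 14.66 and 14.49 in HFS, 14.39, 14.86 and 14.15 in DOPA, and 14.51, 14.95 and 14.37 in DOPA/HFS, with differences of 0.01, -0.16 and -0.02 (SE 0.22). The 10-spot RefSeq probe A_43_P11442 gave 12.45, 12.79 and 12.63 in 6-OHDA, 13.09, 12.60 and 12.71 in HFS, 12.73, 12.55 and 12.62 in DOPA, and 12.71, 12.80 and 12.75 in DOPA/HFS. The kinds of probe moved differently within one gene: both expressed-tag probes correlated at r = 0.82 and both RefSeq probes at r = 0.78, while across kinds r was between 0.17 and 0.37. RefSeq probe A_44_P214040 had the lowest unadjusted p of the 48 probe differences, 0.115, for a rise of 0.26 under HFS (SE 0.149, adjusted p = 0.999 by limma), where HFS replicate 1 was at 14.02 and the other 11 arrays between 13.43 and 13.75.

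Tbp, the transcription factor, gave 9.05, 9.60 and 9.24 in 6-OHDA, 9.33, 9.54 and 9.27 in HFS, 9.08, 9.37 and 8.84 in DOPA, and 9.23, 9.13 and 9.04 in DOPA/HFS. Its highest array was 6-OHDA replicate 2, the one where Gapdh, Pgk1 and Ppia were lowest. The differences were 0.09 for HFS, -0.20 for DOPA and -0.16 for DOPA/HFS (SE 0.18), and no treated group was separated from 6-OHDA.

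**Figure D1:**
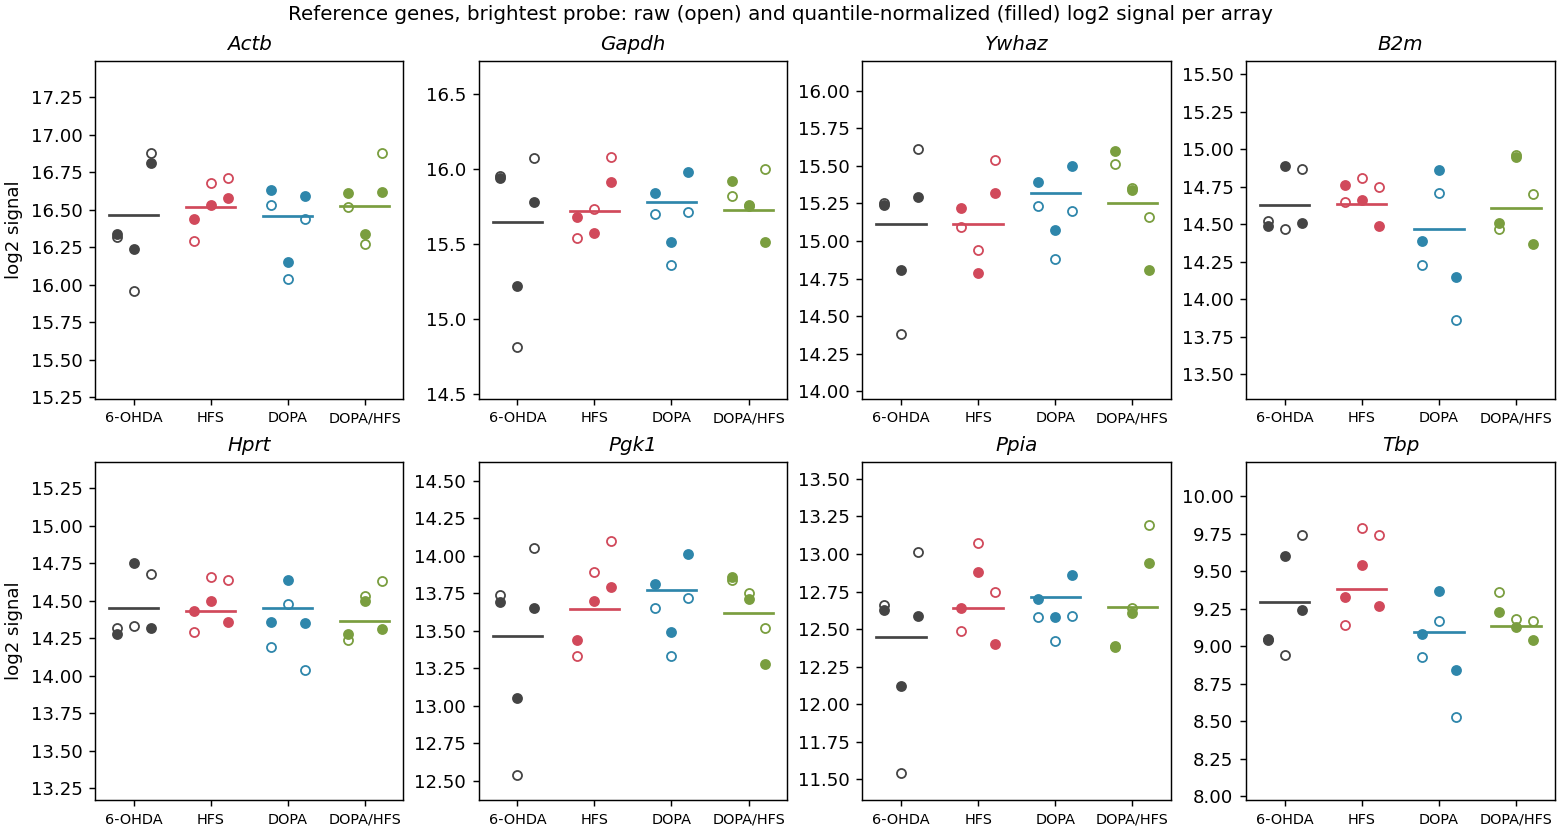
Log2 signal of the brightest probe of each reference gene on each of the 12 arrays, before (open circles) and after (filled circles) quantile normalization, by group, with replicates 1 to 3 from left to right and the group mean after normalization as a bar. Every panel spans the same number of log2 units. The groups overlap for all 8 genes, and 6-OHDA replicate 2 moved up with normalization for each of them.

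The question these comparisons address is whether any treatment shifted the genes that serve as a yardstick. A gene was called where limma gave an adjusted p below 0.1 (Benjamini-Hochberg) and the fold exceeded 1.2 or fell short of 0.8. None of the 8 genes was called in any comparison, where 0% of the 20462 genes were called for HFS, 0.00489% for DOPA (1 gene) and 0% for DOPA/HFS. None of the 16 probes was called either, against 0%, 0.00411% and 0% of the 24318 probes. Without adjustment, no member fell under a p of 0.05, a limit met by 2.34%, 2.59% and 2.76% of genes for HFS, DOPA and DOPA/HFS. No member had arrays separated from the 6-OHDA arrays, which 5.12%, 6.26% and 4.18% of genes with a value on those arrays had. With 8 members these backgrounds amount to less than 1 gene per comparison, so the absence of calls does not set the members apart from other genes. The lowest adjusted p of a member in the limma fit was 0.998, the lowest p of its moderated F test over all 4 groups 0.398, and the lowest p of a test whether HFS acted differently in rats given L-DOPA 0.313, for Pgk1 at -0.34 (SE 0.317, adjusted p = 1 by limma).

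No interval left out 0. Of the 24 gene differences 15 were above 0 and 12 lay within 0.1 of 0, and their standard errors ran from 0.16 to 0.24. The differences of Pgk1, Ppia and Tbp under DOPA exceeded their own standard errors. Over all genes, 35.2%, 41.3% and 36.5% of the differences lay within 0.1 of 0, and the median difference was 0.01, -0.01 and -0.01. Another scaling or leaving out 1 array changed several of them. With no scaling between arrays, Tbp under HFS was at 0.31. Without 6-OHDA replicate 2, Pgk1 under DOPA was at 0.10, Ppia at 0.03, 0.10 and 0.04 in the 3 comparisons, and Hprt at 0.13, 0.15 and 0.06. Without DOPA/HFS replicate 3, the array with many outlier spots, the DOPA/HFS difference became 0.32 for Pgk1, 0.36 for Ywhaz, 0.18 for Gapdh, 0.05 for Ppia and 0.01 for Actb, and none of the 8 genes was called in either case. With the slide as a block no member had an unadjusted p under 0.05 (lowest 0.209, Pgk1 under DOPA, limma). Within the 3 slides, the difference from 6-OHDA had one sign in 0 of 8 genes for HFS, 4 for DOPA and 1 for DOPA/HFS. The share of all genes with one sign was not counted, and the members share the same 6-OHDA arrays. These counts, looked at after the data were seen, therefore do not set the members or DOPA apart. Under DOPA, Pgk1 was higher by 0.12, 0.44 and 0.36, Ppia by 0.08, 0.45 and 0.27 and Ywhaz by 0.15, 0.26 and 0.21 on slides 1 to 3, and B2m differed by -0.10, -0.03 and -0.36. The widest interval bounds of any member were -0.64 for B2m and 0.80 for Pgk1, both under DOPA, or folds of 0.642 and 1.74. With 3 arrays against 3 the exact permutation test cannot go below 0.1. The p-values measure the spread between these arrays only, which holds slide, labelling and hybridisation as well as the rat.

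**Figure D2:**
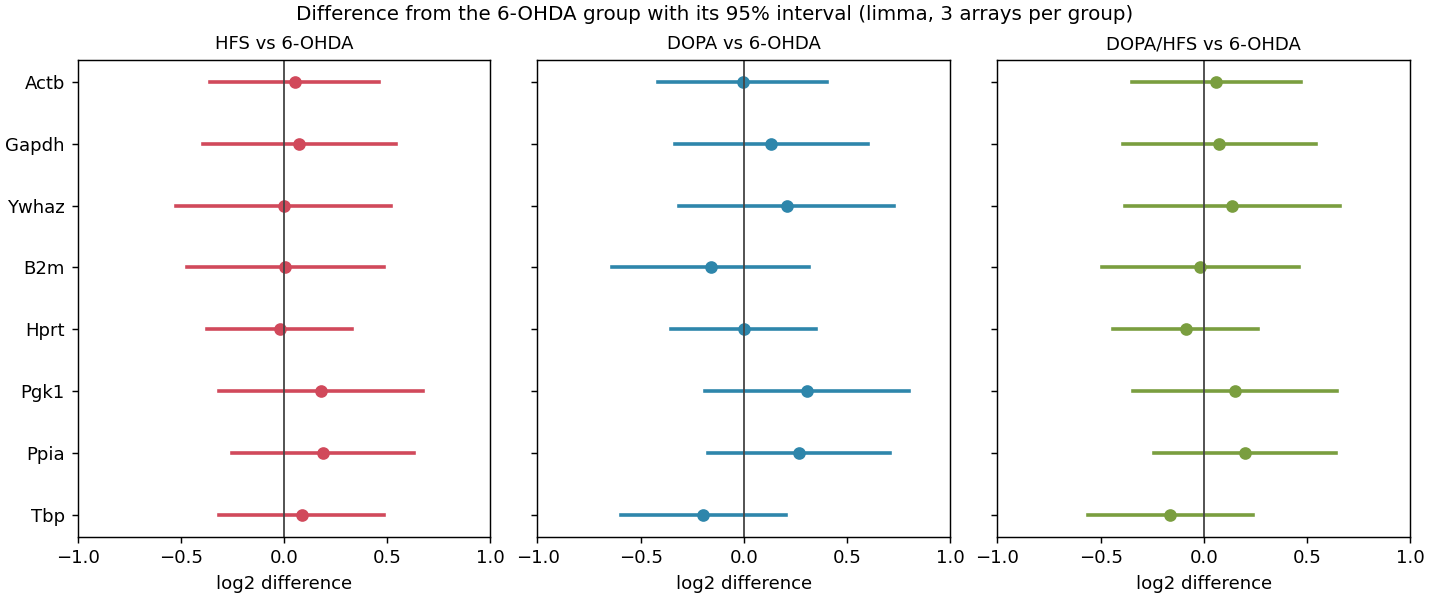
Log2 difference of each reference gene from the 6-OHDA group (points) with its 95% interval (lines) in the limma fit, for HFS, DOPA and DOPA/HFS, 3 arrays per group. Every interval includes 0, and the point farthest from 0 is Pgk1 under DOPA at 0.31.

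How much a gene wandered from array to array was a second measure. Quantile normalization lowered the SD over the 12 arrays for all 16 probes. The raw SD of the brightest probes ran from 0.212 (Hprt) to 0.424 (Ppia), with a median of 0.346 beside 0.418 over all genes. After normalization it ran from 0.149 (Hprt) to 0.274 (Ywhaz), with a median of 0.230 beside 0.271. Before normalization 6 of the 8 genes, and after it 7 of them, were below the median gene. The probes of the members were bright, from 88.7% (Ppia) to 99.6% (Actb) of genes at or below their signal, except Tbp (55.8%). The SDs were not matched for signal, and the part of signal in these places was not tested. Hprt changed least in both states: 3.28% of genes had a raw SD as low as its own, and 10.5% a normalized SD as low. Actb (0.189, with saturated spots on 2 arrays) lay at 23.6%, Tbp (0.216) at 33.2%, Gapdh (0.230) at 37.9%, Ppia (0.231) at 38.3%, B2m (0.242) at 41.8%, Pgk1 (0.266) at 48.8% and Ywhaz at 50.9% of genes.

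The first place of Hprt depended on how the arrays were made comparable and on the probe. It was lowest with no scaling, with quantile normalization, with outlier spots kept, with the mean of its probes, with its 10-spot probe and without any single array. Its probes A_44_P365155 and A_44_P575340 had normalized SDs of 0.2246 and 0.1888, above the brightest Actb probe (0.1885). Weaker probes of Gapdh (A_44_P363377, 0.158) and B2m (A_43_P11442, 0.159) came close to the brightest Hprt probe. With 75th percentile scaling Actb was lowest (0.179, with the same 2 saturated spots, whose values are lower bounds) and Hprt had 0.269, with a normexp background Tbp was lowest (0.187, Hprt 0.199), and in the deposited log2 table Ppia was lowest (0.193, Hprt 0.218). Leaving out 6-OHDA replicate 2 lowered the SD of Hprt to 0.113, of Gapdh to 0.175, of Pgk1 to 0.206 and of Ppia to 0.181.

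**Figure D3:**
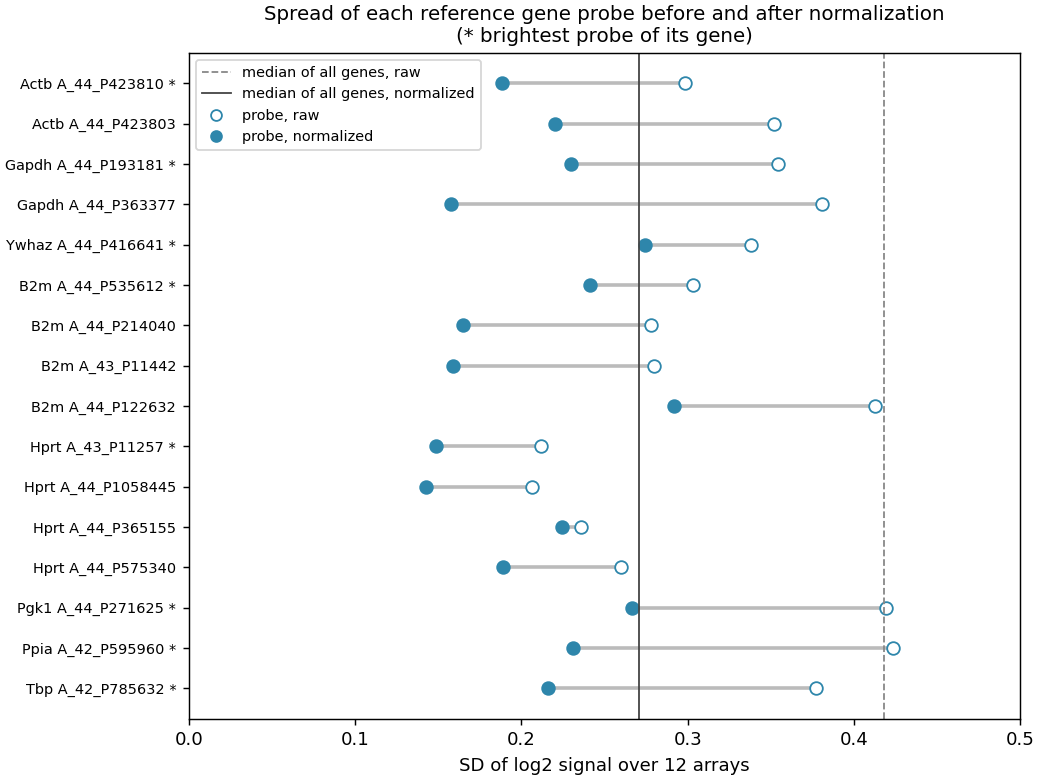
SD of the log2 signal over the 12 arrays for each of the 16 reference gene probes, before (open) and after (filled) quantile normalization, with the median over all genes before (dashed line, 0.418) and after (solid line, 0.271). All probes moved to the left with normalization, and among the brightest probes Hprt lies farthest to the left in both states.

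Repeated spots give the error of reading a single array. In 7 of the probes 10 spots of one array could be compared: their SD, pooled over arrays, was 0.051 (B2m) to 0.091 (Tbp), so the mean of 10 spots had a standard error of 0.016 to 0.029. The SD between arrays within a group was 5.58 times that error for the 10-spot Hprt probe, 7.35 times for Tbp, and 10.0 to 12.5 times for Actb, B2m, Gapdh, Pgk1 and Ppia. The SD between arrays holds labelling, hybridisation and slide as well as the rat, and these cannot be told apart here. Pooled within groups, the SD of the 8 brightest probes was 0.169 to 0.302. The treatment group accounted for 2.67% (Actb) to 31.2% (Tbp) of the sum of squares over the arrays, where the median gene had 21.1%. The other B2m probes had larger group shares than its brightest (8.85%), 24.6% (A_43_P11442), 33.3% (A_44_P122632) and 44.2% (A_44_P214040). A grouping takes such a share also without a treatment effect, and the lowest unadjusted limma p of these probes was 0.115. The slide, which equals the replicate number, accounted for 75.1% in Hprt, 68.6% in B2m, 56.7% in Actb, 44.8% in Gapdh and 41.0% in Tbp, but for 13.9% in Pgk1 and 8.61% in Ppia, beside a median gene of 21.0%. The other Hprt probes had 7.79% to 20.6% on the slide. What differed between slides was not tested.

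Members were then compared as pairs, by their ratio within an array. A constant scaling of an array cancels in such a ratio, but quantile normalization does not. Over the 28 pairs the normalized SD of the log2 ratio ran from 0.117 to 0.444, with a median of 0.330. After quantile normalization the steadiest ratio was that of the neighbours in glycolysis, Gapdh to Pgk1 (0.117), followed by Gapdh to Ywhaz (0.142) and Hprt to Tbp (0.153). In the raw signals and with 75th percentile scaling it was B2m to Hprt (0.156), followed by Gapdh to Ywhaz (0.160) and Gapdh to Pgk1 (0.174), and Hprt to Tbp was at 0.237. The least steady after quantile normalization was B2m to Pgk1 (0.444), with its lowest value in DOPA replicate 3 and its highest in 6-OHDA replicate 2. Averaged over its 7 ratios, Gapdh had the lowest SD (0.279), then Actb (0.290), Hprt (0.295) and Pgk1 (0.298), and B2m the highest (0.348). With this scaling Hprt, read by its brightest probe, was the steadiest gene on its own but not against the other members.

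The pairs fell into a pattern of 2 sets. Gapdh, Pgk1 and Ywhaz rose and fell together after normalization, with r = 0.90 for Gapdh and Pgk1 (rho = 0.82, permutation p = 0.00017, 100000 permutations, adjusted over the 28 pairs 0.00406) and 0.86 for Gapdh and Ywhaz (rho = 0.80, p = 0.00029, adjusted 0.00406). Hprt, Tbp and B2m formed the other set, with r = 0.71 for Hprt and Tbp (rho = 0.71, p = 0.0102, adjusted 0.0326) and 0.76 for Hprt and B2m (rho = 0.67, p = 0.00328, adjusted 0.0184). Between the sets the sign turned, with r = -0.80 for Gapdh and Hprt (rho = -0.64, p = 0.00235, adjusted 0.0184) and -0.69 for Gapdh and Tbp (rho = -0.59, p = 0.0116, adjusted 0.0326). The remaining pairs between the sets were also negative but did not pass. Their adjusted permutation p ran from 0.0919 (Gapdh and B2m) to 0.292 (Ywhaz and B2m). In all, 10 of the 28 pairs had an adjusted p under 0.05 by r, of which 6 were positive and 4 negative, and by rank only the pairs among Gapdh, Pgk1 and Ywhaz did (adjusted p = 0.0253 to 0.0254). Besides those of Gapdh, the negative ones were Actb with Hprt and Actb with B2m. Actb belonged to neither set and had saturated spots.

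The strength of these relations varied with the arrays, slides and scaling. Without the 2 arrays farthest from the median of the first gene, r became 0.74 for Gapdh and Pgk1, 0.79 for Gapdh and Ywhaz, 0.49 for Hprt and Tbp, and -0.88 for Gapdh and Hprt. With slide means removed, r was 0.94, 0.79, 0.43 and -0.62, and with group means removed 0.91, 0.87, 0.82 and -0.84. Removing slide means lowered B2m and Hprt from 0.76 to 0.30, and moved Actb and B2m from -0.70 to -0.23. The permutation p-values do not allow for the slide. The negative sign between the sets was seen after quantile normalization and not before it. In the raw signals all 28 pairs had r above 0, with 0.34 for Gapdh and Hprt, and with 75th percentile scaling that pair was at -0.08 and 9 of the 28 pairs were negative, against 16. For Gapdh and Pgk1, r was 0.81 to 0.94 over the alternatives of scaling, background, table and probe and on leaving out a single array. The set around Hprt also rested on the probe chosen: the 10-spot Hprt probe correlated with Gapdh at r = -0.21 and with Tbp at 0.03, and the 10-spot B2m probe with Gapdh at -0.24 and with Tbp at 0.20.

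**Figure D4:**
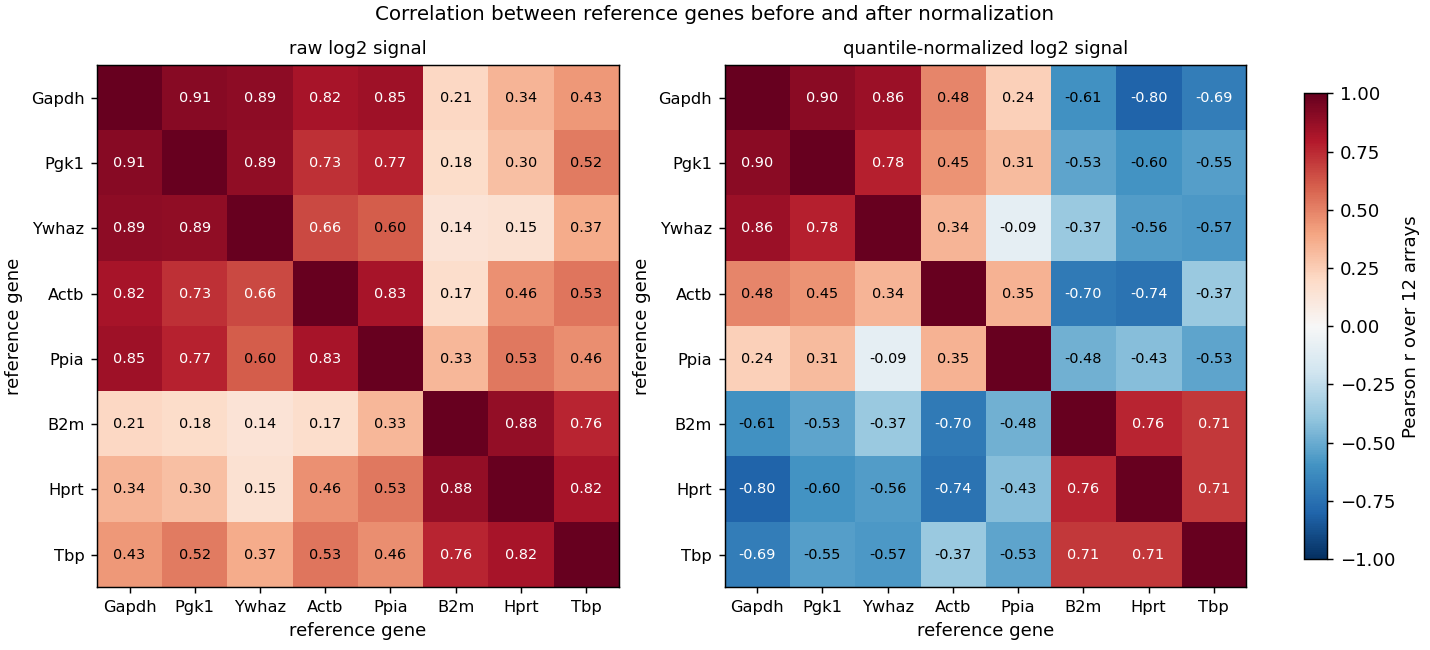
Pearson r over the 12 arrays for each pair of reference genes (brightest probes), in the raw log2 signals (left) and after quantile normalization (right), from -1 (blue) to 1 (red). On the left all 28 pairs are positive with a stronger block among Gapdh, Pgk1, Ywhaz, Actb and Ppia and another among B2m, Hprt and Tbp, and on the right the pairs between these blocks are negative.

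The genes whose pattern over the 12 arrays was most like a member, among 18351 genes with a value on all arrays, are given as a description with Pearson r. For Gapdh they were Eif2a (r = 0.957) and Brox (0.953), for Pgk1 Sesn1 (0.945) and Map3k4 (0.944), for Actb Mlycd (0.947), Crybb1 (0.935) and Fbxw9 (0.926), for Ywhaz Rab10 (0.932), and for Ppia Ankrd9 (0.914) and Ndufs8 (0.874). For Tbp the best match with an approved symbol was Rpl13a (0.942), a ribosomal protein gene that is also used as a reference. The further matches, and all of those of Hprt and B2m, carry only a provisional or accession name.

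The use of a reference gene is as a divisor. When the raw signal of every array was divided by 1 reference gene, the median SD over all genes fell from 0.418 to between 0.335 (Gapdh) and 0.389 (B2m). Gapdh and Actb (0.337) gave the lowest values, followed by Tbp (0.348) and Hprt (0.352). The mean of the 8 genes brought it to 0.281, close to quantile normalization (0.271) and below 75th percentile scaling (0.310). These values describe 12 arrays and were not tested against each other.

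Then each RT-qPCR target of the study was set against each reference gene, for HFS and 6-OHDA. These genes had been chosen on these arrays for their difference, so the differences themselves are given as a description, and the point is how far they depend on the divisor. Ttr, the carrier of thyroxine made by the choroid plexus, had log2 signals of 6.23, 6.59 and 5.80 in 6-OHDA and 16.30, 11.86 and 15.28 in HFS. Its difference lay between 8.09 relative to Ppia and 8.29 relative to Hprt. Sostdc1, a secreted inhibitor of BMP and Wnt signalling, lay between 4.91 and 5.12. The 6-OHDA and HFS ranges of Ttr were far apart. For both genes the arrays stayed apart with all 8 divisors, and the choice of divisor weighed little beside the spread in the HFS rats, whose SD was over 2 log2 units.

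For the smaller differences the divisor decided whether the arrays were separated. Igf2, a growth factor, differed by 0.77 relative to Ppia and 0.98 relative to Hprt, and its arrays were apart with Actb, B2m, Gapdh and Ywhaz but not with Hprt, Pgk1, Ppia or Tbp. Chrna7, the alpha-7 nicotinic receptor subunit, differed by 0.28 relative to Ppia (fold 1.22) and 0.49 relative to Hprt (fold 1.41), with arrays apart for Actb, B2m, Hprt and Ywhaz. Prkcd, protein kinase C delta, differed by -0.80 relative to Ppia and -0.59 relative to Hprt, and its arrays were apart for Actb, Gapdh, Pgk1, Ppia and Ywhaz. Relative to Hprt the Prkcd SD within 6-OHDA was 0.716, and relative to Gapdh 0.078. Sirt5, a mitochondrial deacylase, lay between -1.37 and -1.16 and stayed apart with all 8 divisors.

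Over the 48 combinations of target and divisor, 37 had HFS and 6-OHDA arrays apart, each with an exact two-sided permutation p of 0.1, the smallest possible. The order of the divisors was the same for each target by construction, because each shifts all targets by its own HFS difference, with Hprt (-0.02) at one end and Ppia (0.19) at the other. No combination changed sign under any alternative.

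**Figure D5:**
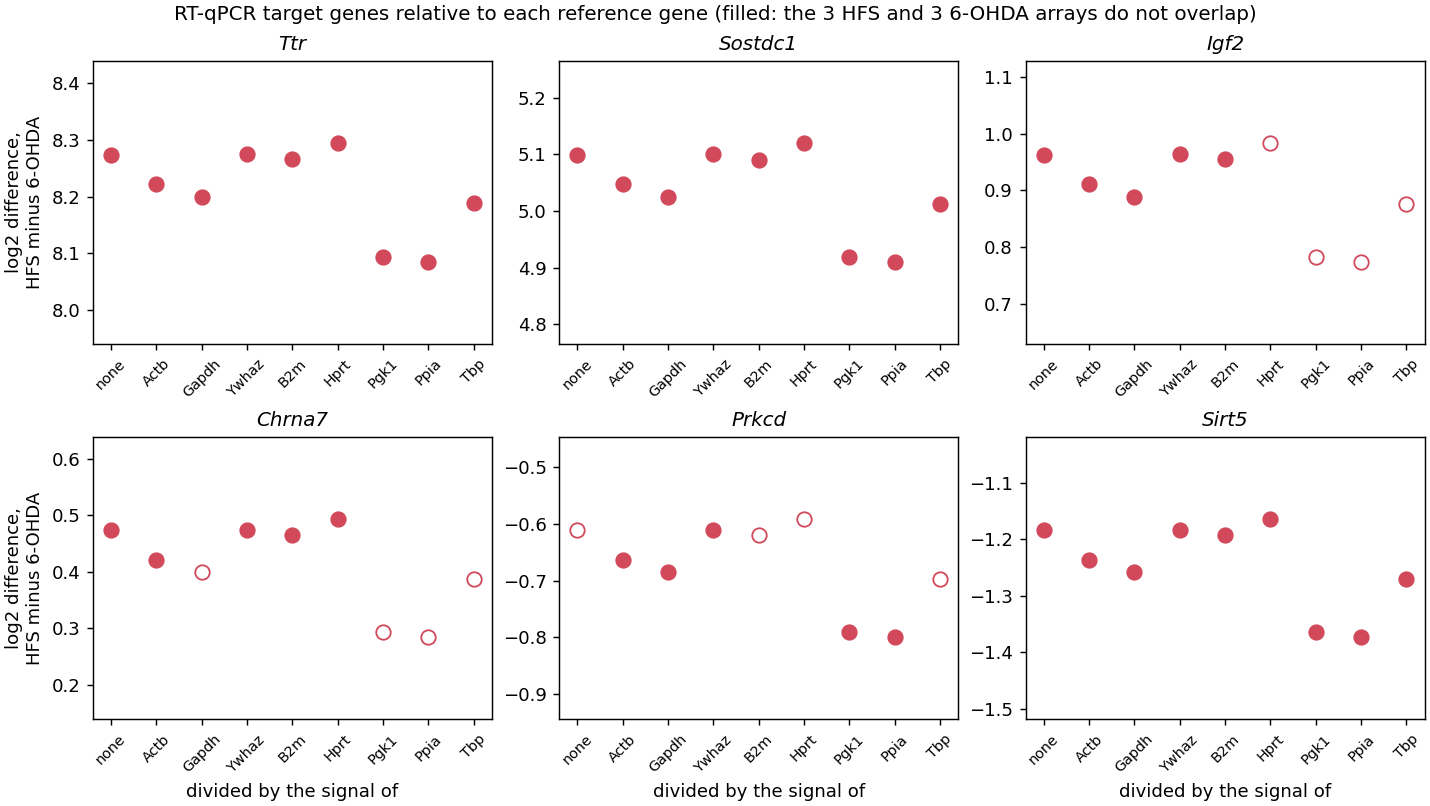
Log2 difference HFS minus 6-OHDA for the 6 RT-qPCR target genes, with no divisor and after division by each reference gene, 3 arrays per group. Each panel spans the same number of log2 units around its own values, and filled points mark combinations in which the arrays of the groups do not overlap. Ttr, Sostdc1 and Sirt5 are filled with every divisor, and Igf2, Chrna7 and Prkcd only with some.

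Partners of the members in the same pathways were described from 8 lists holding 93 further genes: other reference genes, glycolysis, purine salvage and breakdown, the MHC class I pathway, cyclophilins, the 14-3-3 family, actins and their binding proteins, and TFIID with basal transcription factors. None of the 93 was called in any comparison. Without adjustment 2 passed a p of 0.05 for HFS, 1 for DOPA and 1 for DOPA/HFS, and the arrays of 4, 6 and 2 genes were apart (backgrounds over all genes of 2.34%, 2.59% and 2.76% by p, and 5.12%, 6.26% and 4.18% apart). The median difference over the partners was 0.06, 0.02 and 0.05.

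In glycolysis (15 partners of Gapdh and Pgk1) the differences ran from -0.17 to 0.34, the highest being neuronal enolase Eno2 under DOPA (SE 0.22, adjusted p = 1 by limma). Its value under HFS was -0.01. In the purine list (12 partners of Hprt), Ada, which deaminates adenosine, had the largest difference of all partners after quantile normalization, 0.80 under DOPA/HFS (SE 0.31, unadjusted p = 0.0257, adjusted p = 1 by limma). It was at 0.39 with a normexp background and 0.28 in the deposited log2 table, and was above background on 10 of the 12 arrays only. Impdh1, of guanine nucleotide synthesis, differed by -0.21, 0.07 and -0.18 (SE 0.14).

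Among the 15 MHC class I partners of B2m, the heavy chain gene RT1-CE5 differed by 0.71 under HFS (SE 0.36, adjusted p = 0.998 by limma), while the immunoproteasome subunit Psmb10 stayed within 0.16 of 6-OHDA. All other RT1 genes of the list lay below 6-OHDA under HFS, the lowest being RT1-Aw2 at -0.40 (SE 0.36), and the median of the list was -0.01. The 2 partners with an unadjusted limma p under 0.05 for HFS were other genes of this list, and neither was called. RT1 genes are near-identical copies, so their probes may share signal. Among the 10 cyclophilins, Ppic lay above 6-OHDA in all comparisons, by 0.48, 0.34 and 0.47 (SE 0.23), and by 0.23, 0.17 and 0.25 with a normexp background. Ppib, one of the 10 cyclophilins and also on the list of other reference genes, differed by 0.16, 0.03 and 0.13 (SE 0.13). On the list of other reference genes, Atp5f1b, a subunit of ATP synthase, differed by 0.36, 0.26 and 0.18 (SE 0.23). Of the 14-3-3 family, Ywhae differed by 0.33 under HFS (SE 0.32), of the actins Acta1 by 0.39 under DOPA (SE 0.22), and of the TFIID list Taf2 by 0.34 under DOPA/HFS (SE 0.31). None of these passed the test.

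Of the 93 partners 14 had a lower normalized SD than Hprt. Ubb (polyubiquitin) had the lowest, 0.0616, but its single spot was saturated on all 12 arrays, so it has only a bound there. Others with a lower SD than Hprt were Pfn2 (profilin 2, 0.0784), Ppil2 (a cyclophilin-like ubiquitin ligase, 0.0866) and Ppib (0.115), and Pfn2 and Ppil2 were named after their values were seen.

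Cell type markers were read beside the members. Levels were summed over those markers that none of the 12 arrays lacked, since values were missing on DOPA/HFS replicate 3 in particular. The log2 sums overlapped between all groups for striatal projection neurons (9 genes, 17.65 to 18.10), astrocytes (6 genes, 15.67 to 15.96), microglia (10 genes, 14.72 to 15.08) and oligodendrocytes (7 genes, 17.59 to 17.84). For endothelium (6 genes) the DOPA arrays, at 13.13 to 13.34, lay above those of 6-OHDA at 12.91 to 12.97 and of DOPA/HFS at 12.85 to 13.01, and HFS spanned 12.67 to 13.17. This separation depended on the genes summed. With all 9 endothelial genes that passed the filter, 6-OHDA (13.86 to 14.03) and DOPA (13.92 to 14.21) overlapped. Among the 6 genes Cldn5 was by far the brightest (mean log2 12.83) and dominated the sum, with a DOPA difference of 0.27 (SE 0.16). The part of endothelium in the DOPA differences of the members was not tested. For choroid plexus, a tissue of the neighbouring ventricle, HFS lay above 6-OHDA: 6 genes summed to 11.67 to 12.59 in 6-OHDA, 13.26 to 16.52 in HFS, 11.79 to 14.29 in DOPA and 12.01 to 12.43 in DOPA/HFS. The ranges of HFS and DOPA overlapped. These sums rested on few genes. Enpp2, at 11.69, 11.49 and 12.51, made up most of the sum in 6-OHDA. Ttr, at 16.30 and 15.28, made up most of it in HFS replicates 1 and 3. All 8 genes of the list that passed the filter had an unadjusted limma p under 0.05 for HFS, against 2.34% of all genes, and none was called. Of these, 4 were well above background on all arrays, and Clic6 and Slc4a5 on 5 arrays only, close to the filter limit. The last 2 were higher in HFS, by 3.48 and 1.81, and may have passed the filter through those arrays. Since Ttr and Sostdc1 had been chosen for this difference, the count and the sums are a description only. In the same comparison the member differences lay between -0.02 and 0.19, whereas Ttr and Sostdc1, described above as targets, belong to this list. The part of choroid plexus in their values was not tested.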

How the data were processed

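RNA of the dorsal striatum of each of 12 rats was read on its own Agilent rat array in a single colour. The authors read the arrays with Agilent Feature Extraction 9.1, and the deposited scanner files hold intensity values with local background subtracted and detrended. The authors also deposited a log2 table of the same spots, quantile normalized with the AgiND library, which was an alternative here.

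From the scanner intensity, control spots and outlier spots were left out (saturated spots were kept). The log2 values of the spots were quantile normalized, and the spots of a probe were then averaged. A probe was kept if the scanner software found it well above background on 0.4 or more of all arrays, and the brightest probe stood for a gene. All 4 groups were fitted in limma 3.58.1 (R 4.3.3), without a block, and p-values adjusted by Benjamini-Hochberg over all genes or all probes. For a call, limma's adjusted p had to lie below 0.1 and the fold outside 0.8 to 1.2. Single values were compared by exact two-sided permutation, and correlations by permutation. Precision is set by how few arrays there are per group, since averaging spots removes only reading error.

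Of the array's probes, 10735 were named through RefSeq accessions. The members and gene lists were chosen with earlier results of these data known. Named were all members, the RT-qPCR targets, called, brightest or most and least changed genes of each list, and the 3 genes most correlated with each member. Same-numbered arrays shared a slide, but their deviations correlated at -0.29 to 0.48, so the numbers were not taken as pairs. On simulated data for HFS against 6-OHDA (18351 genes, 50 changed at each size), 4 genes changed by 0.5 on the log2 scale were called, 26 changed by 1, 44 changed by 2 and 47 changed by 3, with 16 false calls. The simulated noise was independent between genes and arrays, had no slide effect, and many genes changed at once. These counts may therefore overstate what the arrays could show. In the data no gene was called for HFS (lowest adjusted p 0.353 by limma), not even Ttr at 8.27. Primer sequences came from the study's supplementary primer list, and promoter windows from RefSeq.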

Additional observations from a re-analysis of the deposited data

How the results depend on the processing

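None of the reference genes (0) was called in any comparison under any alternative, in the limma fits with another scaling, background, table, probe, filter, threshold or set of arrays, and none had an unadjusted p under 0.05 in the fit reported. That fit called at most 1 of all 20462 genes per comparison, so an absence of calls says little about the members. How many of all genes each alternative called is not given here. With the replicate number as a block (replicate block) the count was 0 as well and the median HFS difference of the 8 genes was 0.06, and the block changed no call. By correlation, 5 of 12 arrays matched best with their own number. The median SD of the 8 genes, 0.230, became 0.278 with 75th percentile scaling and 0.346 with no scaling between arrays, and ran from 0.186 (without 6-OHDA replicate 2) to 0.241 when 1 array was left out. Pairs with a negative correlation, 16 of 28, numbered 9 with 75th percentile scaling and 0 with no scaling. The cause was not tested beyond the construction of these scalings. Of 525 recomputed differences 60 had the other sign, 32 of 288 on leaving out an array and 28 of 237 otherwise, and 7 of 24 differences kept one sign. Combinations of target and divisor with arrays apart, 37 of 48, numbered 34 to 43. The within-slide differences, the marker sums without missing values, the alternatives with the 10-spot probe and those for targets with another scaling or array left out were chosen after seeing the data. With 3 rats per group no interval left out 0, and saturated spots of Actb and Gapdh hold only a lower bound.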
